A study of Mus musculus with 12 samples.

Results

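The 34 genes described here are mouse genes of glycolysis and of the response to low oxygen. The rule lists them by name: 2 glucose transporters, 3 hexokinases, 8 genes of upper and 5 of lower glycolysis, 5 genes that handle pyruvate and lactate, 4 genes that encode or restrain the hypoxia-inducible factors (HIF), and 7 genes known to respond to hypoxia. Each gene was represented by the brightest of its probes on each array design. All 34 had a probe on both designs, out of 30525 genes or accessions kept on one design and 27935 on the other. On the first of these all 34 passed the filter on dim probes, and on the second 33 passed. The exception was Slc16a1, a lactate transporter.

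Glycolysis splits glucose to pyruvate and yields ATP without oxygen, and lactate dehydrogenase then turns pyruvate into lactate so that the pathway can run on. When oxygen falls, the prolyl hydroxylases that mark the HIF alpha subunits for destruction stop working, and HIF binds the core sequence RCGTG, which reads ACGTG or GCGTG, near its target genes. Many glycolytic enzymes are known HIF targets, and activated microglia and other macrophages are known to shift towards glycolysis.

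Microglia, the macrophages that reside in brain tissue, were isolated from male mice of 8 weeks by magnetic sorting for CX3CR1, the fractalkine receptor. The mice were wild type, ZEB1-overexpression or ZEB1-knock down. ZEB1 is a zinc-finger transcription factor, and the labels do not say which promoter drives the transgene or how the knock-down was made. Cells were taken either from controls (before) or after transient middle cerebral artery occlusion (tMCAO), a stroke model in which a brain artery is blocked and reopened. The labels give no interval after tMCAO. Each of the 6 groups held 2 arrays, 12 in all. The labels do not say whether the 2 come from separate animals, so the p-values reflect nothing but how far these arrays spread, and that spread may be technical.

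Wild type and overexpression after tMCAO were hybridised to one slide, called the 4-array slide, and the remaining 4 groups to another design, the 8-array slide. These names count the arrays of this series on each slide and not the slide format, and each array held 59305 spots. Between the slides, group and slide cannot be told apart, so tests were made within a slide. Every level below is a log2 signal relative to the 75th percentile of its array, where 1 unit is a factor of 2. That percentile lay between 1078 and 1515 intensity units for the 4-array slide and between 2566 and 3702 for the other, and 60.4% to 73.9% of spots were well above background. The scanner software marks spots as non-uniform or outlying. Unless a sentence says that they were kept, such spots are left out of the fitted differences. The levels of single arrays are given for all spots. Of the members' spots, 44.1% were marked in the knock-down arrays after tMCAO and also in the overexpression arrays before it, against 1.47% in wild type and 0% in knock-down before tMCAO. On the 4-array slide 51.5% were marked in wild type and 44.1% in overexpression. On the 8-array slide, the knock-down arrays after tMCAO lay in row 1 and columns 1 and 2, and those before it in row 2 and columns 3 and 4. The place on the slide therefore cannot be told apart from tMCAO, and each other group of that slide likewise occupied its own row and side. Over all spots of that slide, 18.19% to 23.74% were marked on the arrays of columns 1 and 2, against 1.027% to 3.285% in columns 3 and 4. On the 4-array slide wild type lay in row 1 and columns 3 and 4, and overexpression in row 2 and columns 2 and 4. Row and genotype cannot be told apart there.

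Zeb1 showed no difference between the labels that passed the threshold. Its brightest probe on the 8-array slide was at -0.57 and -0.59 in wild type, -0.28 and -0.36 in the arrays labelled overexpression, and -0.11 and -0.79 in those labelled knock-down before tMCAO. With all spots kept, overexpression minus wild type was 0.26 ± 0.23 (SE, n = 2 arrays each, 95% interval -0.30 to 0.81, limma adjusted p = 0.771) and knock-down minus wild type was 0.13 ± 0.23 (95% interval -0.43 to 0.69, adjusted p = 0.984). In the knock-down arrays after tMCAO it was at -0.66 and -0.67. A second probe on that slide gave 0.15 for overexpression and 0.061 for knock-down before tMCAO, each minus wild type, all spots kept. For knock-down after minus before tMCAO the second probe gave -0.44 and the brightest -0.22. The wild type arrays of the 4-array slide gave 0.12 and 0.41, and those labelled overexpression gave -0.08 and 0.56. Groups are named as labelled throughout. The labels do not place the probes relative to the construct, so these levels may not check it.

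Genes that mark microglia were measured on both slides, and so were genes that mark neurons and astrocytes, which the sort should remove. A marker list is summarised by its summed signal, each gene taken as a multiple of the array's 75th percentile. In wild type before tMCAO the sums were 40.9 to 42.3 for microglia, 50 to 53.8 for neuron and 54 to 57.3 for astrocyte markers. RNA of neurons and astrocytes was thus present, and the members' levels cannot be assigned to microglia alone. Sums of different lists rest on different probes and are not comparable in size. In knock-down after against before tMCAO, all spots kept, 7 of 7 monocyte and border macrophage markers were higher and 6 rose, with a summed signal of 18.2 to 19.3 against 8.00 to 8.54. Of the microglia markers 8 of 10 were higher and 5 rose, with sums of 51.4 to 56.1 against 38.1 to 39.0. Of the 7 neuron markers none was higher and 2 fell, with sums of 39.9 to 44.1 against 50.3 to 50.5. Oligodendrocyte markers were higher in 6 of 6 with 1 called (sums of 41.2 to 41.3 against 29.1 to 29.4). Astrocyte markers were higher in 5 of 8 with 1 called (57.8 to 66.1 against 48.9 to 49.7). Endothelial and mural markers were higher in 8 of 9 with 5 called (23.6 to 25.3 against 17.8 to 18.4). Neutrophil markers were higher in 4 of 7 with 0 called (7.93 to 10.5 against 5.58 to 6.13). Of 3 lymphocyte markers 0 were higher and 1 fell (0.0225 to 0.104 against 0.0869 to 0.118). Of 3 erythroid markers 0 were higher and 1 fell (1.85 to 2.76 against 3.24 to 5.44). The part of these cell types in the results that follow was not tested. In bulk samples, fewer cells of a type and less RNA per cell cannot be told apart.

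The promoters of 3 members that rose after tMCAO in the knock-down arrays with marked spots left out, the hexokinase genes Hk3 and Hk2 and the regulator Pfkfb4, are shown beside those of 2 enzymes of the same pathway whose difference did not pass, Ldha and Pgk1. Each is the 250 bases before a RefSeq transcription start on GRCm38.p6, written 5′ to 3′ on the gene's strand, with ACGTG and its reverse complement CACGT in capitals.
Hk3, chr13:55021386-55021635, minus strand: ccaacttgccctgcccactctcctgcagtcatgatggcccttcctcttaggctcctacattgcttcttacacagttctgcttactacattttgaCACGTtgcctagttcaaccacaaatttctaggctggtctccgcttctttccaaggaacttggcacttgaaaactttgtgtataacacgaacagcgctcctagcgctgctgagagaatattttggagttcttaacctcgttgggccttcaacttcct
Hk2, chr6:82774455-82774704, minus strand: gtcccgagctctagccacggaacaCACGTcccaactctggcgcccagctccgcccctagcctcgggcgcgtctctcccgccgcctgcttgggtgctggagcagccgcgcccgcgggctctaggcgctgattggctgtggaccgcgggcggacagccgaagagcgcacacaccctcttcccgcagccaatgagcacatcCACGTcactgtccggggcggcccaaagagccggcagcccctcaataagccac
Pfkfb4, chr9:108991652-108991901, plus strand: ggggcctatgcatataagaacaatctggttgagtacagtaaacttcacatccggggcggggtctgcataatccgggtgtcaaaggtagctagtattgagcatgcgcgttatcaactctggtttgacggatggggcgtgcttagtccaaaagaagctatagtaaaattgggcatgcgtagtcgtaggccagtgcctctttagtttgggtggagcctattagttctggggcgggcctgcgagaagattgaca
Ldha, chr7:46845554-46845803, plus strand: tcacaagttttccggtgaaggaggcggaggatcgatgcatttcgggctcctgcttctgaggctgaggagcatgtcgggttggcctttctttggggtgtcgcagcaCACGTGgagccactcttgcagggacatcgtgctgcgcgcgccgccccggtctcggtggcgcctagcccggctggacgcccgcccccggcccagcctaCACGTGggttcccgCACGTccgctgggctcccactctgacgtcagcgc
Pgk1, chrX:106186850-106187099, plus strand: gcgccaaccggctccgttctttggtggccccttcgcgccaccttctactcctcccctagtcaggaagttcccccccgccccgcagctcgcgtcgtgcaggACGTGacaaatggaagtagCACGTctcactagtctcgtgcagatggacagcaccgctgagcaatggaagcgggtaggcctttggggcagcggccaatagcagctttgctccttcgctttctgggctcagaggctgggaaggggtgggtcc
The Hk3 stretch held 1 such match, that of Hk2 held 2, and that of Pfkfb4 held 0 but 1 match to GCGTG. The Ldha stretch held 3 matches, 2 of them the palindrome CACGTG, which reads as ACGTG on both strands and was counted once, and Pgk1 held 2. Ldha and Pgk1 are only 2 of the members that did not pass. A second RefSeq promoter of Ldha held 0 matches to ACGTG. Those of Gapdh and Tpi1 held 0 and that of Pgam1 held 1. No comparison of match numbers is drawn from these examples. RefSeq promoters were matched for 32 members (45 promoters). On either strand ACGTG stood in 23 of them (51.1%), against 16.6% of 32851 mouse promoters of the same length, and GCGTG in 53.3% against 28.2%. The members' promoters were also richer in G and C, with a median of 61.6% against 52.4%, and in CpG, with a median of 14 against 6. A match describes the letters in this window and is no evidence of binding.

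Arrays of one group lay close together for most members. The median absolute difference between the 2 arrays of a group over the members was 0.10 in wild type, 0.14 in overexpression and 0.15 in knock-down before tMCAO, 0.27 in knock-down after tMCAO, and 0.19 in wild type and 0.26 in overexpression after tMCAO. The largest was 1.47, for Hk3 in knock-down after tMCAO. Before tMCAO the largest were 0.81 for Car9 in wild type, 0.54 for Hk3 in overexpression and 0.57 for Slc16a3 in knock-down. On the 4-array slide they were 0.94 for Ddit4 in wild type and 1.08 for Egln1 in overexpression.

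The first comparison set knock-down after tMCAO against knock-down before it. Hexokinase 3 and the bifunctional regulator Pfkfb4 rose whether marked spots were left out or kept. Hexokinase 2 rose with marked spots left out, on 1 array after tMCAO, and did not pass with both arrays. Where a group has 1 array, it is assumed to vary like the other groups of the slide. The core enzymes from Gpi1 to Ldha did not pass the threshold in either direction. With marked spots left out 23 members could be tested, since the other 11 had both spots of the knock-down arrays after tMCAO marked. Of these 3 rose and 0 fell (13%), against 18.1% of all 24646 genes tested, of which 11.1% rose and 7.03% fell. Their median difference was 0.10, and that of all genes was 0.045. When marked spots were kept all 34 were tested, 3 rose and 1 fell (11.8%), against 16.6% of 30525 genes, of which 10.1% rose and 6.47% fell, and the median was 0.12 against 0.041. The share of members that passed was thus near that of all genes and slightly below it.

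**Figure D1:**
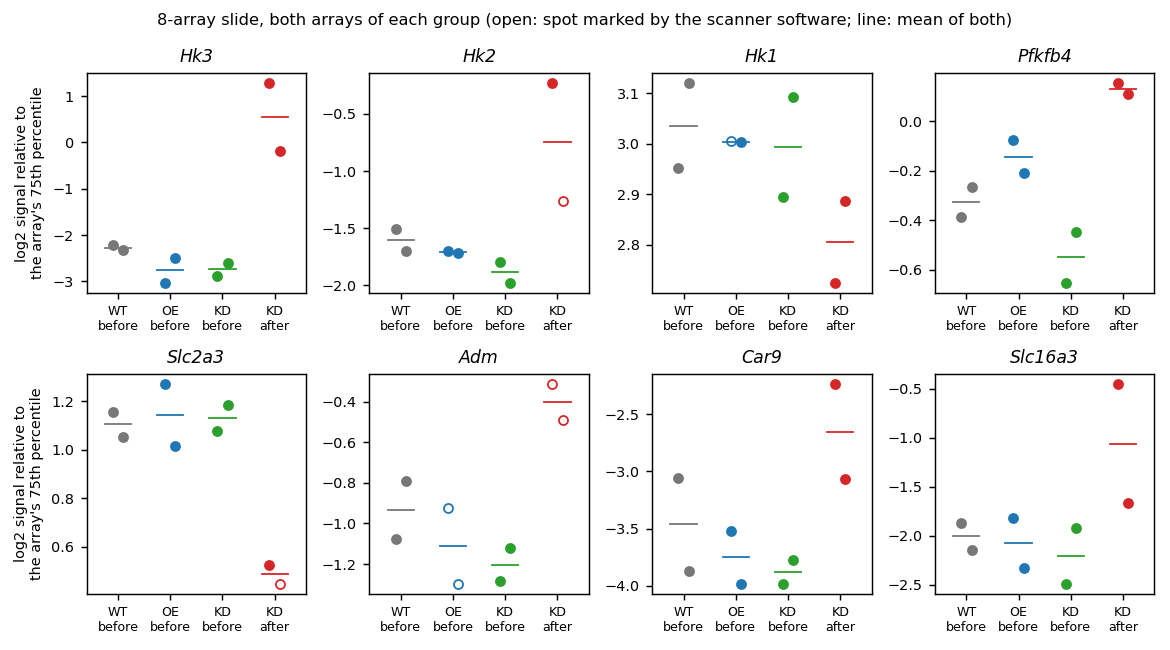
Level (log2 signal relative to the array's 75th percentile) of 8 members on the 8 arrays of the 8-array slide, with 1 point per array, open where the spot was marked, and a line at the mean of both arrays of a group (WT wild type, OE overexpression, KD knock-down). Each panel has its own vertical scale. Hk3, Hk2, Pfkfb4, Adm and Slc16a3 are highest in both knock-down arrays after tMCAO, and Slc2a3 is lowest there. Car9 is highest in the first of them, and the second (-3.068) lies just below the first wild type array (-3.055).

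Hexokinases trap glucose in the cell as glucose 6-phosphate. Hk3, the form known best from blood leukocytes, was at 1.28 and -0.19 in the knock-down arrays after tMCAO and at -2.89 and -2.59 before it. Wild type was at -2.21 and -2.33 and overexpression at -3.03 and -2.50 before tMCAO. Both arrays after tMCAO were above all 6 arrays before it, and they also differed from each other by more than any 2 arrays of another group did for this gene. The difference was 3.29 ± 0.47 (SE, n = 2 and 2 arrays), a 9.76-fold rise (limma adjusted p = 0.0104). A second Hk3 probe gave 3.55. The call was lost when either knock-down array before tMCAO was left out, with adjusted p = 0.0614 without replicate 1 and 0.0592 without replicate 2. Over the 18 alternative settings the adjusted p ran from 0.000518 to 0.0636 and the difference from 2.55 to 4.02.

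Hk2, the inducible hexokinase of muscle and of activated immune cells, was at -0.23 and -1.26 after tMCAO and at -1.79 and -1.98 before it in the knock-down arrays. Wild type was at -1.51 and -1.70 and overexpression at -1.70 and -1.72. The second array after tMCAO carried a marked spot and lay closer to the arrays before tMCAO than the first. With that spot left out the difference was 1.65 ± 0.18 on 1 array against 2 (adjusted p = 0.00849), and with it kept it was 1.14 ± 0.33 and did not pass (adjusted p = 0.0604). Without knock-down replicate 2 before tMCAO it was 1.56 and missed the threshold (adjusted p = 0.0505), and over its alternatives the adjusted p ran from 0.000713 to 0.222. Hk1, the form present in most tissues and especially in brain, was at 2.73 and 2.89 after tMCAO and at 2.90 and 3.09 before it, a difference of -0.19 ± 0.16 (adjusted p = 0.423).

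The upper glycolytic genes carry glucose 6-phosphate to triose phosphates. Pfkfb4, which makes and breaks down fructose 2,6-bisphosphate, the activator of phosphofructokinase, was at 0.15 and 0.11 in the knock-down arrays after tMCAO and at -0.65 and -0.45 before it. Wild type was at -0.39 and -0.27 and overexpression at -0.08 and -0.21, so that both arrays after tMCAO were the highest of the 8. The difference was 0.68 ± 0.14 (1.60-fold, adjusted p = 0.0252). It missed the threshold without any one of the 4 arrays: adjusted p was 0.0741 and 0.0538 without replicate 1 and 2 after tMCAO, and 0.101 and 0.0698 without replicate 1 and 2 before it. It also did so when the array median was subtracted in place of the 75th percentile (0.38, adjusted p = 0.250), and its adjusted p ran from 0.00680 to 0.250 over 18 alternatives. Pfkfb3, its relative with the stronger kinase activity, differed by 0.19 ± 0.18 (adjusted p = 0.480).

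Of the other 6 upper glycolytic genes none passed. Pfkl, the liver form of phosphofructokinase, was at 0.14 and 0.16 after tMCAO and at 0.10 and 0.56 before it (-0.18 ± 0.18, adjusted p = 0.509). The muscle form Pfkm differed by -0.11 ± 0.14 and the platelet form Pfkp by -0.068 ± 0.16, both with marked spots kept. Gpi1, which converts glucose 6-phosphate to fructose 6-phosphate, differed by 0.016 ± 0.15 and Tpi1, which interconverts the triose phosphates, by 0.13 ± 0.16, again with marked spots kept. Aldoa, which splits fructose 1,6-bisphosphate, was at 3.96 and 4.27 after tMCAO and at 3.97 and 4.07 before it (0.10 ± 0.16, adjusted p = 0.687).

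Lower glycolysis runs from glyceraldehyde 3-phosphate to pyruvate, and 0 of its 5 members passed. Gapdh, the dehydrogenase often taken as a reference gene, was at 3.81 and 4.16 after tMCAO and at 3.85 and 4.005 before it, with both spots after tMCAO marked (0.052 ± 0.18 with them kept, adjusted p = 0.863). Eno1, enolase, had the largest difference of the 5, with levels of 2.58 and 3.09 after tMCAO and 3.16 and 3.24 before it (-0.37 ± 0.20, adjusted p = 0.246). Its first array after tMCAO was lower than the second by more than the gap between the groups. Pgk1, phosphoglycerate kinase, differed by 0.18 ± 0.16 with marked spots kept. Pgam1, phosphoglycerate mutase, differed by -0.065 ± 0.18 on 1 array after tMCAO and by 0.051 with its marked spot kept. Pkm, pyruvate kinase, differed by 0.17 ± 0.14.

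Among the genes of pyruvate and lactate, Slc16a3, which exports lactate from glycolytic cells, was at -0.45 and -1.67 in the knock-down arrays after tMCAO and at -2.49 and -1.92 before it. Both arrays after tMCAO were above all 6 before it (-2.49 to -1.82), with the first far above the second. The difference of 1.14 ± 0.43 did not pass (adjusted p = 0.112), and it rested on the first array after tMCAO. It was 0.54 without that array (adjusted p = 0.326) and 1.75 without the second, when it passed (adjusted p = 0.0332). The adjusted p over 18 alternatives ran from 0.0332 to 0.371. Pdk1, the kinase that shuts down pyruvate dehydrogenase, was at 0.50 and 0.52 after tMCAO and at 0.11 and -0.05 before it (0.48 ± 0.14, adjusted p = 0.0708), and its other probes gave -0.27 to 0.33. On 1 array after tMCAO, Ldha, the muscle-type subunit of lactate dehydrogenase, differed by 0.13 ± 0.18 and Ldhb, its heart-type subunit, by -0.28 ± 0.19. With the marked spots kept, Ldha differed by 0.17 and Ldhb by -0.15. Slc16a1, a further lactate and pyruvate transporter, had both of its spots marked in the knock-down arrays after tMCAO and differed by 0.21 ± 0.16 with them kept. Further probes well above background gave -0.53 for Ldha and, among the enzymes of lower glycolysis, -0.31 for Pkm, the opposite sign in both cases.

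The glucose transporters did not move together. Slc2a3, the high-affinity transporter known from neurons and also found in leukocytes, was at 0.53 and 0.45 in the knock-down arrays after tMCAO, the second spot being marked, and at 1.08 and 1.19 before it. Wild type was at 1.16 and 1.05 and overexpression at 1.27 and 1.02, so that both arrays after tMCAO were the lowest of the 8. With marked spots kept it fell by 0.65 on the log2 scale (SE 0.16, adjusted p = 0.0400), and with them left out the difference was -0.61 ± 0.19 on 1 array against 2 (adjusted p = 0.0810). Kept or not, it missed the threshold without any one of the arrays (adjusted p 0.0752 to 0.224), and over all alternatives the adjusted p ran from 0.0371 to 0.224. Slc2a6, a lysosomal hexose transporter induced in inflammatory macrophages, was at -0.54 and -1.02 after tMCAO and at -1.04 and -0.56 before it, a difference of 0.015 ± 0.25 with overlapping groups.

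The HIF genes and the hydroxylases that restrain them did not pass. Hif1a, the alpha subunit of HIF-1, was at 1.78 and 1.83 after tMCAO and at 1.56 and 1.46 before it. The difference was 0.32 ± 0.19 on 1 array after tMCAO and 0.30 with the marked spot kept. Both arrays after tMCAO were above all 6 before it (1.27 to 1.56), and the first rested on a marked spot. Epas1, which encodes HIF-2 alpha, was at 3.003 and 3.36 after tMCAO and at 3.01 and 3.004 before it (0.17 ± 0.17 with marked spots kept). The hydroxylase gene Egln1 differed by -0.19 ± 0.17 with marked spots kept, and Egln3, a hydroxylase itself induced by hypoxia, by 0.26 ± 0.22.

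Of the 7 hypoxia response genes, Adm, which encodes the vasodilator peptide adrenomedullin, rose with marked spots kept. It was at -0.31 and -0.49 in the knock-down arrays after tMCAO, both marked, and at -1.28 and -1.12 before it. Wild type was at -1.08 and -0.79 and overexpression at -0.92 and -1.30. The difference was 0.80 ± 0.20 (1.74-fold, adjusted p = 0.0420), and no value exists with marked spots left out. It missed the threshold without any one of the 4 arrays (adjusted p 0.0652 to 0.164, and 0.0472 to 0.164 over all 5 alternatives).

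Car9, a carbonic anhydrase and a classical HIF target, was at -2.24 and -3.07 after tMCAO and at -3.98 and -3.78 before it. Before tMCAO wild type was at -3.06 and -3.87 and overexpression at -3.52 and -3.98. The difference of 1.22 ± 0.38 did not pass (adjusted p = 0.0698), although the second probe gave 2.25 and 5 of 18 alternatives passed (adjusted p 0.00988 to 0.236). It was 0.81 without replicate 1 after tMCAO (adjusted p = 0.218) and 1.64 without replicate 2, when it passed (adjusted p = 0.0488). Vegfa, the vascular growth factor, went the other way, at 0.25 and -0.03 after tMCAO with both spots marked and at 0.53 and 0.74 before it (-0.52 ± 0.17 with them kept, adjusted p = 0.0831). Its 2 further probes well above background gave 0.0060 and 0.021. The hypoxia response genes therefore had no common direction.

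The remaining 4 did not pass. Ddit4, an inhibitor of mTORC1, was at 2.09 and 3.05 after tMCAO, the second spot being marked, and at 2.03 and 2.09 before it (0.032 ± 0.19 without that spot and 0.51 ± 0.32 with it). Bnip3, which acts in mitophagy, differed by 0.072 ± 0.18 and P4ha1, a collagen prolyl hydroxylase subunit, by -0.14 ± 0.23, with -0.97 from a second P4ha1 probe. Ankrd37, a small ankyrin repeat gene, differed by -0.28 ± 0.22 with marked spots kept.

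**Figure D2:**
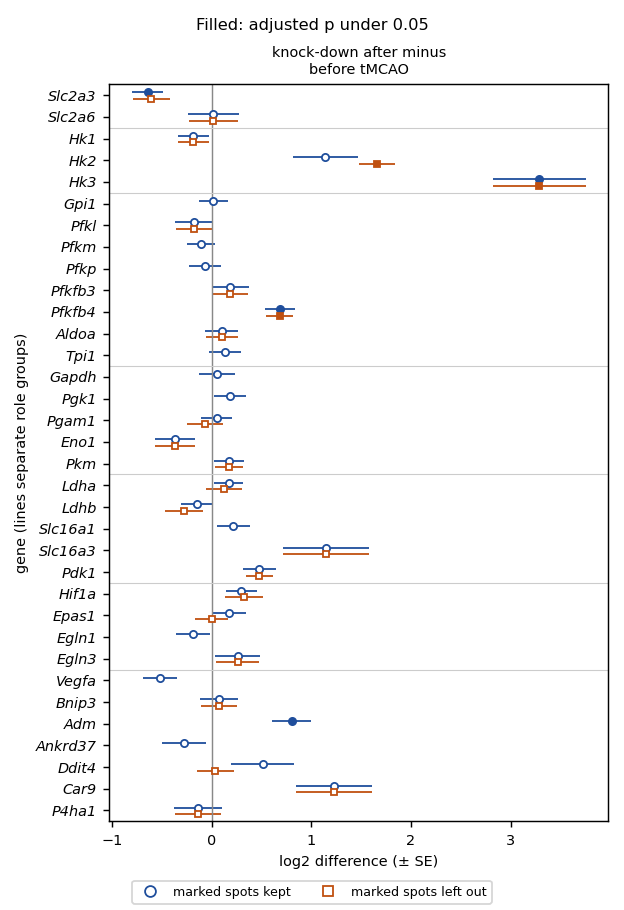
Log2 difference, knock-down after minus before tMCAO, of each member with its standard error, circles with marked spots kept and squares with them left out, filled where the adjusted p was under 0.05. Filled points are Hk3 and Pfkfb4 in both fits, Hk2 with marked spots left out (1.65), and Slc2a3 (-0.65) and Adm (0.80) with them kept. The enzymes from Gpi1 to Ldhb other than Pfkfb4 lie within -0.37 and 0.19.

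The list of further genes of the same pathways was measured in this comparison too. With marked spots left out, 31 were tested, 5 rose and 3 fell (25.8%, against 18.1% of all genes). With them kept, 45 were tested, 3 rose and 2 fell (11.1%, against 16.6% of all genes), so the share lay above that of all genes in one fit and below it in the other. All 3 genes with a value of the pentose phosphate pathway, which branches from glucose 6-phosphate and supplies NADPH, rose: Pgd by 0.96 ± 0.13 (adjusted p = 0.00888), G6pdx by 0.56 ± 0.15 (adjusted p = 0.0476) and Pgls by 0.55 ± 0.14 (adjusted p = 0.0480). Once marked spots were kept, 7 of 7 were higher and Pgd alone passed (adjusted p = 0.0112), with G6pdx at an adjusted p of 0.0603 and Pgls at 0.0614. Angptl4, a secreted inhibitor of lipoprotein lipase known to respond to hypoxia, rose by 2.23 ± 0.43 (adjusted p = 0.0225), and Plod1, a collagen lysyl hydroxylase, by 2.14 ± 0.30 on 1 array after tMCAO (adjusted p = 0.0143). Pgam2, the muscle phosphoglycerate mutase, fell by 1.04 on the log2 scale (SE 0.14, adjusted p = 0.00993), Car12, a membrane carbonic anhydrase, fell by 1.504 (SE 0.40, adjusted p = 0.0495), and Pdk2, a kinase of pyruvate dehydrogenase, fell by 0.93 on 1 array (SE 0.20, adjusted p = 0.0482). Angptl4, G6pdx and Pgls missed the threshold without any one of the 4 arrays (adjusted p 0.0596 to 0.163). Pgd missed it without replicate 1 before tMCAO (adjusted p = 0.05005) and Pgam2 without replicate 2 before tMCAO (adjusted p = 0.0577). Plod1 and Pdk2 missed it without either array before tMCAO (adjusted p 0.0637 to 0.156), and Car12 passed without replicate 1 after tMCAO alone (adjusted p 0.0178, and 0.0712 to 0.198 without each of the others).

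After tMCAO, overexpression was set against wild type on the 4-array slide. None of the members passed, and the largest differences were those of Hif1a, which was higher, and Car9, which was lower. With marked spots left out 18 members had a value and 0 were called, against 2.34% of 22072 genes (1.59% higher and 0.748% lower). At an unadjusted limma p under 0.05 there were 3 members, against 21.1% of all genes. With marked spots kept 0 of 33 were called, against 3.2% of 27935 genes (1.95% higher and 1.25% lower). At an unadjusted p under 0.05 there were then 4, against 22.5% of all genes. The medians of the members were 0.17 and 0.015, and those of all genes were -0.105 and -0.101. In these arrays 3 of 9 endothelial and mural markers fell with marked spots kept, with a summed signal of 17.7 to 18.2 in overexpression against 26.4 to 29.2 in wild type, and the microglia sums were 107 to 123 against 125 to 132 with 0 called. Neuron markers were higher in 0 of 7 (sums of 27.8 to 39.6 against 42.8 to 44.7). Oligodendrocyte markers were higher in 1 of 6 (18.6 to 19.7 against 23.9 to 24.3). Astrocyte markers were higher in 3 of 8 (49.2 to 49.8 against 56.4 to 57), and erythroid markers in 1 of 4 (20.6 to 27.4 against 29.1 to 33.6). In these 4 lists 0 were called. Other lists went the opposite way: 1 of 7 neutrophil markers rose (sums of 62.2 to 65.2 against 53.5 to 59.1), and lymphocyte markers were higher in 5 of 5 with 0 called (8.66 to 15.5 against 6.56 to 7.53). With marked spots kept, monocyte and border macrophage markers were higher in 5 of 6 with 0 called (median difference 0.467). Both overexpression sums of that list lay above the wild type sums of 9.71 to 10.7. The part of all these cell types in the members' values was not tested.

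Hif1a was at -0.65 and 0.36 in overexpression and at -1.19 and -1.14 in wild type after tMCAO. Both overexpression arrays were above both wild type arrays, and they differed from each other by about as much as the groups did. The difference was 1.02 ± 0.36 (adjusted p = 0.170). It was 0.52 without overexpression replicate 2 (adjusted p = 0.390) and 1.52 without overexpression replicate 1, when it passed (adjusted p = 0.0307), and over 17 alternatives the adjusted p ran from 0.0164 to 0.498. Car9 was at -0.99 and -0.39 in overexpression and at 0.12 and 0.02 in wild type (-0.76 ± 0.29, adjusted p = 0.195). Slc2a6 was at 2.0 and 1.86 against 1.37 and 1.34 (0.58 ± 0.24, adjusted p = 0.227), and a second probe gave 0.47. Neither overlapped between the groups.

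None of the hexokinases passed. All spots kept, Hk3 was at 2.02 and 2.04 against 1.56 and 1.16 (0.67 ± 0.25, adjusted p = 0.171), Hk2 at 1.73 and 2.03 against 1.56 and 1.67 (0.27 ± 0.24), and Hk1 at 3.52 and 3.19 against 3.25 and 3.65 (-0.093 ± 0.26). Both wild type spots of Hk3 and of Hk2 were marked. Pfkfb4 was at 2.53 and 2.25 against 1.90 and 1.92 (0.48 ± 0.23, adjusted p = 0.274). Pfkfb3 was at 2.94 and 2.92 against 2.78 and 2.73 (0.17 ± 0.23).

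The core enzymes were spread on both sides of 0 with marked spots kept. Pkm was at 2.41 and 2.27 against 3.16 and 2.62, all 4 spots marked (-0.55 ± 0.27, adjusted p = 0.280). Tpi1 differed by -0.42 ± 0.24, Pfkm by -0.39 ± 0.23, Eno1 by -0.25 ± 0.25, Gpi1 by -0.25 ± 0.25, Aldoa by -0.23 ± 0.30 and Ldhb by -0.23 ± 0.23. Ldha was at 4.06 and 3.91 against 4.17 and 4.20 (-0.20 ± 0.22), while its 2 other probes gave 0.34 and 0.79. Pgk1 lay on the other side with 0.30 ± 0.24, and Gapdh, Pgam1, Pfkl and Pfkp lay between -0.13 and 0.08. Slc16a3 was at 3.25 and 3.36 against 3.04 and 2.94 (0.31 ± 0.22), Pdk1 differed by 0.21 ± 0.26 and Slc2a3 by 0.015 ± 0.23. None of these differences passed. Further probes gave 0.34 for Hk1, 1.16 for Pfkfb3, -0.48 for Pfkp and -0.35 to 0.10 for Gapdh.

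Among the HIF and hypoxia genes, all spots kept, Epas1 was at 2.90 and 2.63 in overexpression against 3.29 and 3.17 in wild type, with 4 marked spots (-0.47 ± 0.23, adjusted p = 0.289). Egln1 was at -4.29 and -3.21 against -4.29 and -4.22 (0.51 ± 0.36), where the second overexpression array alone was high. Egln3 differed by 0.47 ± 0.27, with both wild type spots and 1 overexpression spot marked. A second Egln3 probe with no marked spot was at -0.39 and -0.20 against -0.85 and -1.28, a difference of 0.77. P4ha1 differed by 0.50 ± 0.23, with 0.26 from a second probe. Vegfa was at 0.94 and 1.22 against 0.81 and 0.56 (0.39 ± 0.24), with -0.027 from a second probe. Adm differed by 0.19 ± 0.23, Ankrd37 by 0.20 ± 0.24, Bnip3 by -0.024 ± 0.24 and Ddit4 by -0.27 ± 0.34. Further Bnip3 probes gave 0.43 and 0.045. Slc16a1 was not well above background on either wild type array or on the second overexpression array and has no difference here. The further pathway genes gave 0 calls of 28 with marked spots left out and 0 of 47 with them kept. At an unadjusted p under 0.05 there were 3 and 5, against 21.1% and 22.5% of all genes.

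**Figure D3:**
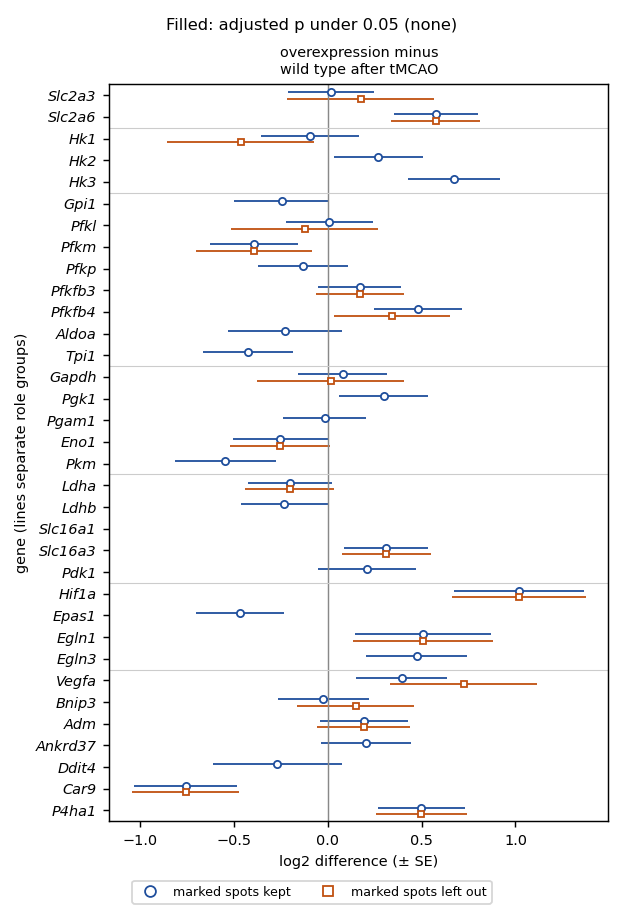
Log2 difference, overexpression minus wild type after tMCAO, of each member with its standard error, circles with marked spots kept and squares with them left out. No point is filled, since no adjusted p was under 0.05. Hif1a lies farthest right (1.02) and Car9 farthest left (-0.76).

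Before tMCAO the 3 genotypes were compared with each other. Limma called 0 of 25162, 0 of 30293 and 0 of 25167 genes for overexpression against wild type, knock-down against wild type and overexpression against knock-down (0% each), with 2929 (11.6%), 2653 (8.76%) and 3715 (14.8%) at an unadjusted p under 0.05. The counts with all spots kept were 0 of 30525 in each. No member passed either, and the 3 comparisons share arrays, so their values are not independent of each other.

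In overexpression against wild type, 25 members had a value with marked spots left out, all within 0.5 of 0, 14 above it and 11 below. Of all genes 77.3% lay within 0.5 of 0 and 48.8% above it. The members' median was 0.019, beside -0.010 for all genes, and 0 members were at an unadjusted p under 0.05. The lowest member was Hk3 at -0.49 ± 0.47 (adjusted p = 0.717). The highest member was Ankrd37 at 0.28 ± 0.18, on 1 overexpression array (0.28 with its marked spot kept). With marked spots kept the median over 34 was 0.025. With them left out Pfkfb4 differed by 0.18 ± 0.14, and, on 1 overexpression array, Hif1a by -0.11 ± 0.19 and Gapdh by 0.12 ± 0.21. With marked spots kept Hif1a differed by -0.029 and Gapdh by 0.094.

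In knock-down against wild type all 34 had a value, 8 of them above 0 and 26 below, with 38.5% of all genes above 0. The members' median was -0.075 beside -0.068 for all genes, and 0 members were at an unadjusted p under 0.05. The members ran from -0.47 ± 0.47 in Hk3 to 0.23 ± 0.16 in Vegfa. Ddit4, at 2.03 and 2.09 against 2.31 and 2.50 in wild type, had the smallest adjusted p, with -0.35 ± 0.15 (adjusted p = 0.649). Hk2 differed by -0.28 ± 0.15 and Car9 by -0.42 ± 0.38.

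In overexpression against knock-down 19 of 25 members were above 0, against 60.2% of all genes, with a median of 0.13 beside 0.098 for all genes. With marked spots kept 28 of 34 members were above 0, against 58.5% of all genes (median 0.11 beside 0.075). Pfkfb4 had the smallest adjusted p and was the one member at an unadjusted p under 0.05. It was at -0.08 and -0.21 in overexpression and at -0.65 and -0.45 in knock-down, groups that did not overlap (0.41 ± 0.14, adjusted p = 0.283). Wild type lay between them at -0.39 and -0.27. Ddit4 differed by 0.37 ± 0.19 on 1 overexpression array (0.52 with its marked spot kept) and Egln3 by 0.33 ± 0.22.

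**Figure D4:**
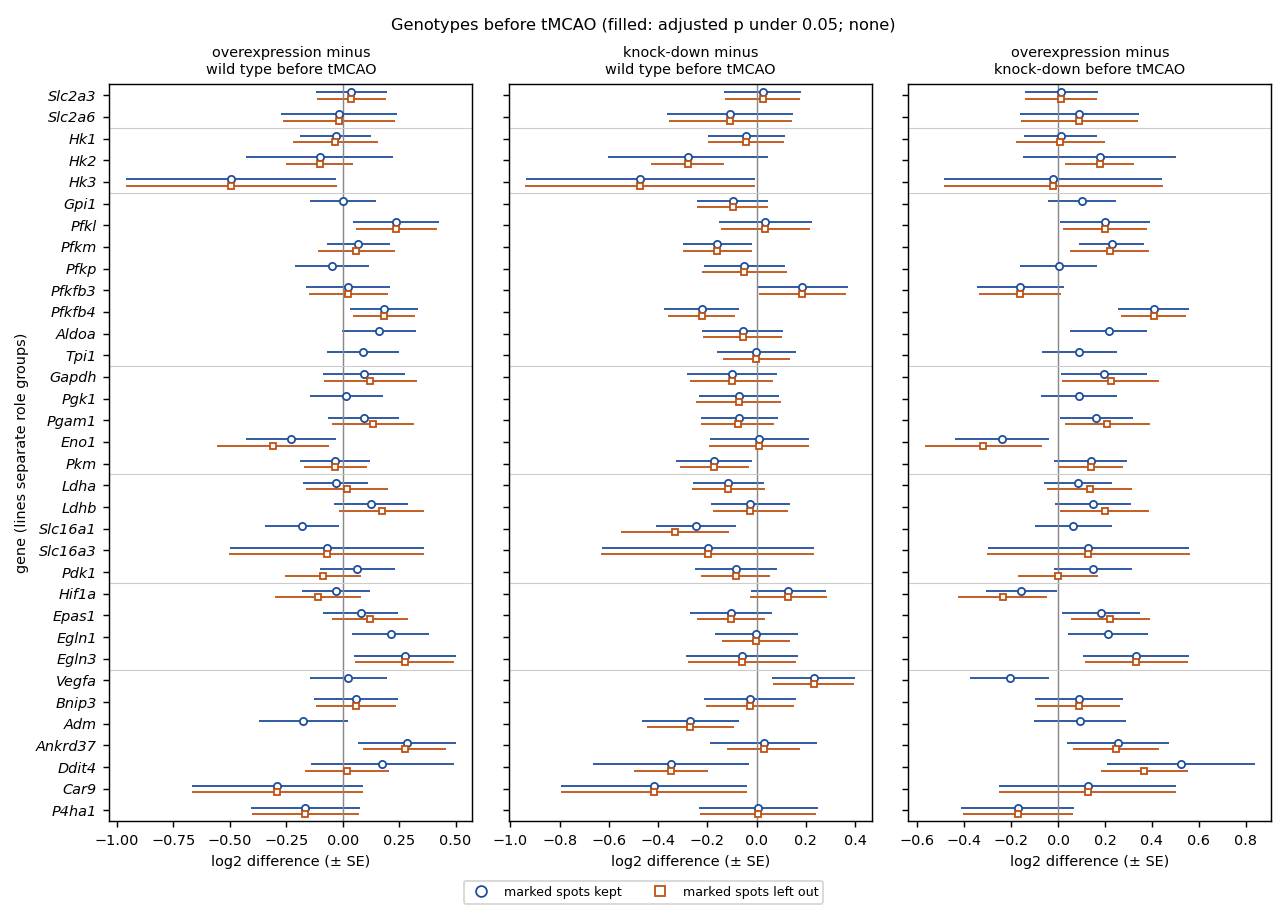
Log2 differences between genotypes before tMCAO for each member with their standard errors, from left to right overexpression minus wild type, knock-down minus wild type and overexpression minus knock-down, circles with marked spots kept and squares with them left out. Each panel has its own horizontal scale. No point is filled, and the values lie between -0.49 (Hk3) and 0.52 (Ddit4).

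Levels on the 2 slides can only be set side by side, since slide and tMCAO cannot be told apart there. For 21 members the same probe was the brightest on both. Among them, in wild type before tMCAO on the 8-array slide and after it on the 4-array slide, Slc16a3 was at -1.87 and -2.15 and then 3.04 and 2.94, Hk2 at -1.51 and -1.70 and then 1.56 and 1.67, and Car9 at -3.06 and -3.87 and then 0.12 and 0.02. Slc2a3 was at 1.16 and 1.05 and then 0.98 and 1.17, and Epas1 at 3.08 and 3.14 and then 3.29 and 3.17. Adm was lower on the second slide, at -1.08 and -0.79 and then -2.25 and -2.54. No test was made of these values.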

How the data were processed

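Single-colour (Cy3) Agilent arrays of 12 samples were used. The deposited scanner files hold background-subtracted intensity per spot and, as other values, yes or no spot marks, per the file headers, written by Feature Extraction 11.5.1.1. The version in the submitters' processing notes is 9.1. Probes were named through RefSeq accessions. Intensity was converted to log2 and each array's 75th percentile subtracted. Probes well above background on every array of a group were kept, and the brightest stood for its gene. Groups were compared with limma 3.58.1 (R 4.3.3, two-sided, all groups of a slide together), Benjamini-Hochberg adjusted over all genes, with a threshold of 0.05 and marked spots left out. "Rose", "fell" and "called" mean an adjusted p under 0.05. The authors' deposited log2 value tables served as an alternative. Their 2 knock-down columns after tMCAO each matched the other replicate's scanner file (correlation with their own 0.975). Normexp used median signals. The 34 members and the lists were chosen with earlier results of these data known. All 34 may be named. Members past the threshold, or with the largest differences, are given in full. Of the further pathway genes and markers, only those past the threshold or list ranges are given. The number of arrays limits the precision.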

Additional observations from a re-analysis of the deposited data

Results flagged for a closer look

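For 6 members the 2 overexpression arrays lay on one side of both wild type arrays before tMCAO and on the opposite side after it, all spots kept. The slides differ between the 2 times and the difference was not tested for any of them. How many of all genes did the same was not counted, so the 6 are no result about the list. Hk3 was at -0.49 before and 0.67 after (log2, overexpression minus wild type), and P4ha1 at -0.16 and 0.50. Pfkm was at 0.069 before and -0.39 after, Pgam1 at 0.093 and -0.017, Ldhb at 0.12 and -0.23, and Epas1 at 0.080 and -0.47. None of these differences passed the threshold. Hk3, Ldhb and P4ha1 rest on a different probe on each slide.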

How the results depend on the processing

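Knock-down after against before tMCAO had 4460 genes called, and 7442 with normexp, 2118 without the filter on dim probes, 2310 with only the 2 groups in the fit, and 825 to 3789 with 1 array left out (with marked spots kept 5062, and 769 to 4685, among them 2680 without replicate 1 after and 908 without replicate 1 before tMCAO). The members called numbered 3, and 5 with normexp or the stricter filter on dim probes, and 0 to 4 with 1 array left out (0 to 3 with marked spots kept). Their median of 0.10 was -0.23 with the array median subtracted, 0.24 with normexp, -0.001 with the mean over all probes, and 0.049 to 0.26 with 1 array left out (0.025 to 0.22 with marked spots kept). Median subtraction moved the median of all genes from 0.045 to -0.27, and the share of calls that were higher from 61.2% to 36.5%. It was 44.8% with quantile normalization and 78.6% with normexp.

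Overexpression against wild type after tMCAO had 516 genes called, and 895 with marked spots kept, 329 with quantile normalization or median subtraction, 777 with the deposited tables, 0 without the filter, and 39 to 1103 with 1 array left out (160 to 2104 with marked spots kept, among them 1615 without overexpression replicate 2). The members called were 0, and 0 to 1 with 1 array left out, marked spots kept or not. Their median of 0.17 was 0.015 with marked spots kept, 0.18 to 0.26 with 1 array left out and -0.015 to 0.15 with both.

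Before tMCAO 0 genes were called, against 6, 1 and 6 with quantile normalization and 1, 1 and 21 with median subtraction (overexpression against wild type, knock-down against wild type, overexpression against knock-down), and 0 to 6 with 1 array left out. The members' median for knock-down against wild type turned from -0.075 to 0.143 with median subtraction. For overexpression against knock-down it was 0.134, and 0.013 with quantile normalization, -0.017 with median subtraction, 0.236 with normexp, and 0.078 to 0.212 with 1 array left out (0.045 to 0.174 with marked spots kept).

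The replicate numbers did not pair the samples (correlations of deviations from -0.193 to 0.260), and with the replicate block 4686 genes and 4 members were called after against before tMCAO, Car9 being the fourth (1.22, adjusted p = 0.0431). No called value reversed under the alternatives run. For 10 members named after against before tMCAO, 127 of 164 alternative values kept their direction and side of the threshold, 25 lost the call and 12 gained one.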
